A study of Rattus norvegicus with 9 samples.

Results

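A set of 6 genes better known from cartilage and bone than from nerve, Col2a1, Col10a1, Col9a2, Cnmd, Acp5 and Ctsk, were followed in lumbar dorsal root ganglia (DRG) of diabetic rats. They were measured by 7 probe sets, and they are 6 of 10411 genes that the arrays measured with a single gene symbol. They were chosen from their group differences on these same arrays, so those differences describe the genes below and were not tested. All 7 probe sets assigned to these symbols alone are reported, whatever their values. In STZ vehicle ganglia, 5 of the 6 genes lay below the normal ganglia of the same week in each of the 3 weeks. So did 1126 (16.1%) of the 6989 genes tested. Col2a1 and Col10a1 had the largest mean differences, 2.26-fold and 1.92-fold lower, and Col9a2 differed by less than the spread between weeks. The 2.26-fold value came from the first of 2 Col2a1 probe sets, and the second was 1.05-fold lower. With FK1706, the first Col2a1 probe set and Acp5 lay between both other groups in every week, with STZ vehicle lowest. This pattern was found for 64 (0.916%) of the 6989 genes tested. Col10a1 and Cnmd stayed near the STZ vehicle level.

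The ganglia came from spinal levels L4 to L6 of Sprague-Dawley rats and hold the cell bodies of sensory neurons with their glia. Normal rats received vehicle, and rats injected with streptozotocin (STZ), a toxin that kills pancreatic beta cells and so lowers insulin, received either vehicle or FK1706, a ligand of immunophilins. Dosing lasted 1, 2 or 3 weeks and ganglia were removed a day later, and neither dose nor age is given in the sources used here. Each group and week is 1 array of RNA pooled from 5 rats, so the 9 arrays give 3 pools per group, each from a different week, and no spread between rats. In pooled tissue, fewer cells of a type and less RNA per cell cannot be told apart.

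Values are log2 signals after quantile normalization, with a small constant added before the logarithm, and a difference of 1 is a factor of 2. Signal without this scaling fell with week, from a trimmed mean of 466 to 534 in week 1 to 361 to 386 in week 3, and no detection calls were used here. Genes with a mean under 7.36 (a signal of about 146) were left out of tests, which kept 6989 genes and all 7 probe sets. The mean of Col10a1 in both STZ groups and that of Acp5 in STZ vehicle lay under this level, so they passed through the groups in which they were higher. The labelled tissue carried its markers. All 17 neuronal genes measured passed the filter, and their summed signal was 87983 to 89580 in normal, 89276 to 90596 in STZ vehicle and 88808 to 91087 in FK1706 ganglia.

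Type II collagen, encoded by Col2a1, forms the main fibrils of cartilage, and type IX collagen, to which Col9a2 contributes a chain, coats those fibrils. Type X collagen (Col10a1) marks the hypertrophic chondrocytes of the growth plate, and Cnmd encodes chondromodulin, a cartilage glycoprotein that restrains blood vessel growth. Acp5 encodes tartrate-resistant acid phosphatase and Ctsk encodes cathepsin K, enzymes by which osteoclasts resorb bone. Both enzymes are also made outside bone, Acp5 in macrophages and Ctsk in fibroblasts.

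SOX proteins drive cartilage collagen genes, RUNX proteins drive Col10a1, and NFAT and MITF drive Acp5 and Ctsk in osteoclasts. The 250 bases before the annotated start were therefore searched on both strands for core letters of these factors: AACAAT (SOX), TGTGGT (RUNX), GGAAA (NFAT) and CATGTG (an E-box read by MITF). RefSeq sequences of build GRCr8 matched 4 of the 6 genes: Ctsk, Col9a2, Acp5 with 2 starts, and Col10a1. GGAAA or its reverse occurred in at least 1 window of each of the 4 genes, against 56.9% of 33469 rat windows of this length. CATGTG or its reverse occurred in Ctsk and in 1 Acp5 window, against 12.1% of windows. AACAAT (in 10.3% of windows) and TGTGGT (in 14.5%) occurred in none of the 5 windows, which says only that these letters are not there. The windows of the 2 osteoclast enzymes and of the collagen with 4 copies of GGAAA or its reverse are shown, 5′ to 3′ along the gene, with both motifs in capitals. They lie at chr2:185747298-185747547 (plus strand), chr8:28943930-28944179 (minus strand) and chr20:39737286-39737535 (plus strand). A match describes the letters and is not a bound site.
Ctsk: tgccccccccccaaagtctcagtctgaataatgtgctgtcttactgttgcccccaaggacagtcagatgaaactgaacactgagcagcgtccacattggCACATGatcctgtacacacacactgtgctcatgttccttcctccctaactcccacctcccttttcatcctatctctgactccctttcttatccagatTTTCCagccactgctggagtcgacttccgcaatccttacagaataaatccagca
Acp5: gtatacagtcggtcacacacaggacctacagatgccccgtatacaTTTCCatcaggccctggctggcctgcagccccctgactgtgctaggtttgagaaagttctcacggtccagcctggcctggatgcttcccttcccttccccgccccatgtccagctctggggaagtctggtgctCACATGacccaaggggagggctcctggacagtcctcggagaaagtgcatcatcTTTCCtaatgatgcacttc
Col10a1: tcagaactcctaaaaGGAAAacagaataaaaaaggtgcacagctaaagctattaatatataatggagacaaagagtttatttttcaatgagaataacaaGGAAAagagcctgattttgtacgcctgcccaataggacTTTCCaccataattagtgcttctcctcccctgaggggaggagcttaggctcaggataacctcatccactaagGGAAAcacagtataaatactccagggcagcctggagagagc

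Col2a1, the type II collagen gene, had log2 levels of 9.19, 8.53 and 8.69 on its first probe set in normal ganglia of weeks 1, 2 and 3. In STZ vehicle ganglia it read 8.01, 7.68 and 7.20, and with FK1706 it read 8.28, 8.14 and 7.73. The 3 normal arrays were the highest of the 9, and each STZ array lay below every normal one. STZ vehicle was lower than normal by a mean log2 difference of -1.18 ± 0.32 (SD, n = 3 weeks), with -1.19, -0.85 and -1.49 in weeks 1 to 3. On this measure it was at position 3 from the most negative end of the 6989 genes.

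Col10a1, the growth plate collagen, had log2 levels of 8.17, 8.31 and 7.72 in normal ganglia. STZ vehicle ganglia read 7.05, 7.17 and 7.16, and FK1706 ganglia read 7.00, 7.60 and 6.90. Neither STZ group overlapped the normal group, and the normal array of week 3 was the closest to them. The log2 difference of STZ vehicle from normal was -0.94 ± 0.33 (SD, n = 3 weeks), at position 5 among the genes tested. It was -1.12 and -1.14 in weeks 1 and 2 and -0.56 in week 3.

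Col9a2, the type IX collagen chain, did not follow this pattern. Its log2 levels were 7.82, 7.81 and 7.86 in normal ganglia. The STZ vehicle ganglia read 7.69, 7.90 and 7.62, and those given FK1706 read 7.70, 7.43 and 7.74. Normal and STZ vehicle overlapped, and the STZ vehicle array of week 2 was the highest of all 9. The log2 difference of -0.09 ± 0.17 (SD, n = 3 weeks) was smaller than its spread, and it turned to 0.0058 without the STZ vehicle array of week 3.

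Cnmd, the chondromodulin gene, had log2 levels of 10.02, 9.89 and 9.74 in normal ganglia. STZ vehicle ganglia read 9.69, 9.10 and 9.28, and 9.55, 9.12 and 9.47 were measured with FK1706. Every array from STZ rats lay below the lowest normal array, by as little as 9.69 against 9.74. The log2 difference of STZ vehicle from normal was -0.53 ± 0.24 (SD, n = 3 weeks), a 1.44-fold lower level.

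Acp5, the acid phosphatase of osteoclasts and macrophages, had log2 levels of 7.999, 7.91 and 7.83 in normal ganglia. STZ vehicle ganglia read 7.32, 7.20 and 7.08, and FK1706 ganglia read 7.82, 7.59 and 7.29. Normal lay highest, FK1706 next and STZ vehicle lowest in each week, although the FK1706 array of week 3 fell within the STZ vehicle range. The log2 difference of STZ vehicle from normal was nearly equal in the 3 weeks, at -0.67, -0.71 and -0.75, with a mean of -0.71 ± 0.036 (SD, n = 3 weeks). The 1.63-fold lower level put Acp5 at position 11 among the genes tested.

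Ctsk, the collagen-degrading cathepsin, had log2 levels of 8.87, 8.74 and 8.68 in normal ganglia. STZ vehicle ganglia read 8.32, 8.50 and 7.95, and FK1706 ganglia read 8.97, 8.24 and 8.38. STZ vehicle lay below normal without overlap, while the FK1706 array of week 1 was the highest of all 9. The log2 difference of STZ vehicle from normal was -0.50 ± 0.25 (SD, n = 3 weeks), smallest in week 2 at -0.24.

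**Figure D1:**
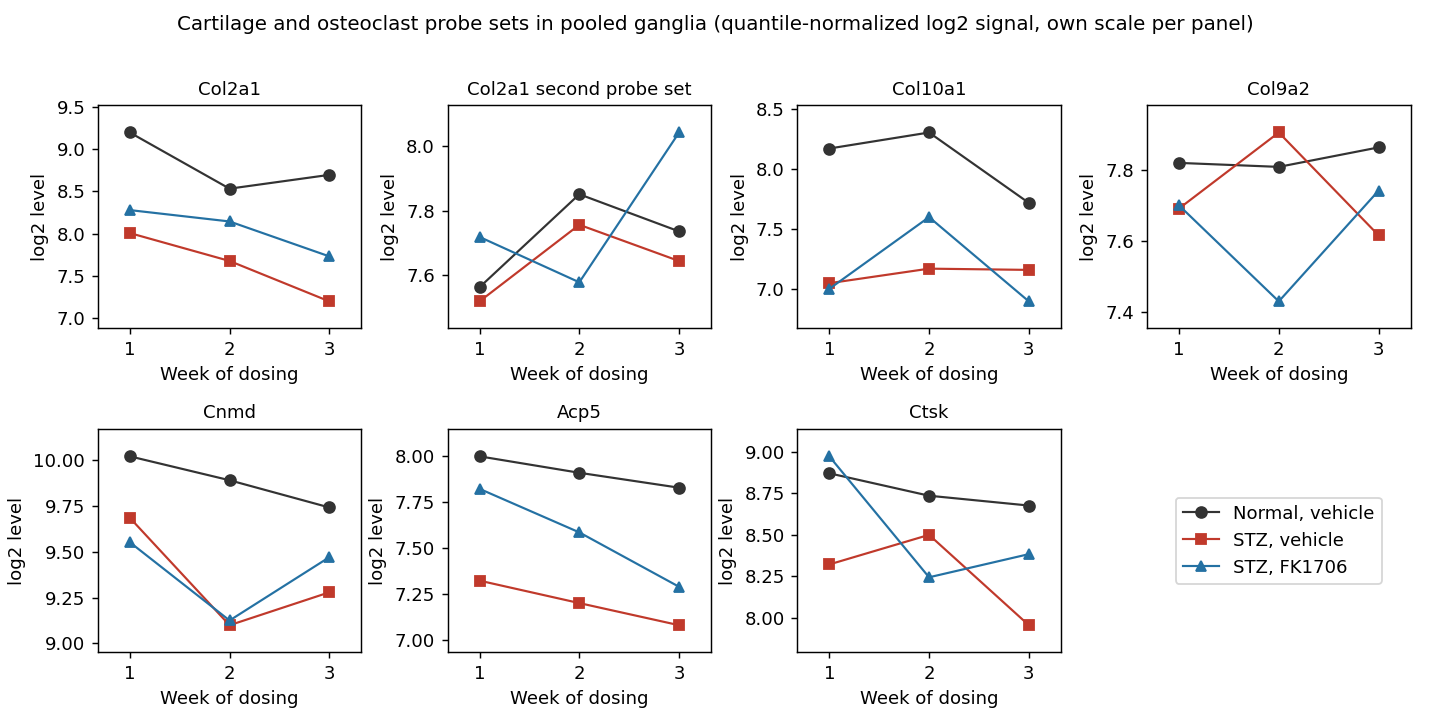
Log2 level (vertical axis, its own range in each panel) of the 7 probe sets by week of dosing; each point is 1 array of RNA pooled from 5 rats, and lines join different pools of a group. Normal ganglia lie above STZ vehicle ganglia in every week for Col2a1, Col10a1, Cnmd, Acp5 and Ctsk, but not for Col9a2.

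Of all 6989 genes, 1126 (16.1%) were lower in STZ vehicle than in normal ganglia in each week, and 486 (6.95%) were lower with no overlap of the groups. The same 5 of the 6 genes met both conditions, with Col2a1 counted by its first probe set. A level at least 1.5-fold lower in every week was found for 4 genes (0.0572%), of which Col2a1 and Acp5 were 2. The limma fit over all genes called 7 genes (0.100%) at an adjusted p under 0.05 after Benjamini-Hochberg adjustment, given here as background. The number of calls ranged from 0 to 6 when any single array or week was left out. Because these differences guided the selection, the counts describe the genes and carry no further weight. The normal array of week 1 was among the highest 3 arrays for all 6 genes and the highest for 3. The STZ vehicle array of week 3 was among the lowest 3 for 5 genes.

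With FK1706, the first Col2a1 probe set was higher than in STZ vehicle ganglia of the same week by log2 differences of 0.27, 0.47 and 0.53. Its mean difference was 0.42 ± 0.14 (SD, n = 3 weeks). The second Col2a1 probe set differed by 0.20, -0.18 and 0.40, a mean of 0.14 ± 0.29 (SD, n = 3 weeks). Acp5 was higher by 0.50, 0.38 and 0.21, a mean of 0.36 ± 0.15 (SD, n = 3 weeks). The mean of the first Col2a1 probe set was 35.9% of its gap between normal and STZ vehicle, and that of Acp5 was 51.2%. The ranges of the FK1706 and STZ vehicle groups overlapped for both genes across weeks, and both comparisons use the same STZ vehicle arrays. Ctsk differed by 0.65, -0.26 and 0.43, with a mean of 0.28 ± 0.47 (SD, n = 3 weeks) that is smaller than its spread.

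For Col10a1 and Cnmd the FK1706 and STZ vehicle groups had nearly equal means. Col10a1 differed from STZ vehicle by a mean log2 value of 0.04 ± 0.35 and Cnmd by 0.03 ± 0.16 (SD, n = 3 weeks each). On the scale as deposited both means lay just below 0, at -0.0046 and -0.046. Col9a2 differed by -0.11 ± 0.32 (SD, n = 3 weeks), with 1 week lower and 2 weeks higher. FK1706 ganglia lay below normal without overlap for the first Col2a1 probe set (log2 difference -0.75), Col10a1 (-0.90), Cnmd (-0.50), Acp5 (-0.35) and Col9a2 (-0.21). The second Col2a1 probe set differed from normal by 0.06 ± 0.30 (SD, n = 3 weeks) and overlapped. Ctsk differed by -0.23 ± 0.30 (SD, n = 3 weeks) and overlapped.

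**Figure D2:**
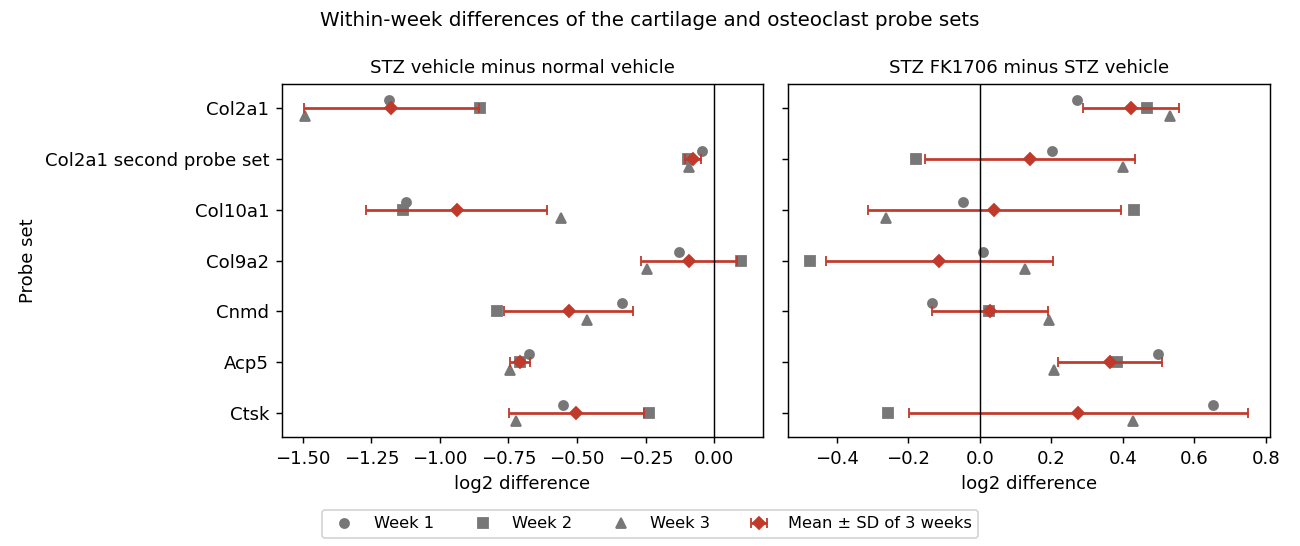
Log2 differences between groups in the same week (grey circles, squares and triangles for weeks 1, 2 and 3) with the mean and SD over the 3 weeks (red diamonds and bars). STZ vehicle minus normal is on the left, and FK1706 minus STZ vehicle, on its own axis range, is on the right. There all 3 weeks lie above 0 for the first Col2a1 probe set and Acp5 alone.

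Each gene is counted here by its probe set of highest mean, which for Col2a1 is the first. Across all genes, 860 (12.3%) were higher with FK1706 than in STZ vehicle ganglia in each week, and Col2a1 and Acp5 were among them. A narrower pattern, with FK1706 between both other groups and STZ vehicle lowest in each week, was found for 64 genes (0.916%), again including Col2a1 and Acp5. FK1706 ganglia were lower than normal ones in each week for 988 genes (14.1%) and without overlap for 424 (6.07%), and Col2a1, Col10a1, Col9a2, Cnmd and Acp5 met both conditions. By limma, no gene (0%) passed between FK1706 and STZ vehicle, where 218 had an unadjusted p under 0.05. Between FK1706 and normal 1 gene (0.0143%) passed.

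The change over weeks is a separate measure in this balanced design and was tested with limma's moderated F test. Col2a1 in this and the next paragraph is read by its first probe set unless the second is named. Its mean over the 3 groups began at 8.49 ± 0.62 in week 1. It then read 8.12 ± 0.43 and 7.88 ± 0.76 in weeks 2 and 3 (SD, n = 3 arrays). The log2 change from week 1 to week 3 was -0.62, with a lower level in week 3 in 3 of 3 groups. It did not pass after adjustment (limma adjusted p = 0.262, unadjusted p = 0.0043). The second Col2a1 probe set went the other way in each group from week 1 to week 3. It read 7.56 then 7.74 in normal, 7.52 then 7.64 in STZ vehicle and 7.72 then 8.04 in FK1706 ganglia. Cnmd changed by -0.38 from week 1 to week 2 and by 0.13 from week 2 to week 3 (limma adjusted p = 0.362). The limma adjusted p was 0.524 for Col10a1, 0.570 for Acp5, 0.529 for Ctsk and 0.992 for Col9a2. The test called 4 of 6989 genes (0.0572%).

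On the scale as deposited, where most genes fell with week, the week test called 4489 genes, which is most of those tested. It passed for 5 of the 6 described genes, so a pass there does not set them apart. There its limma adjusted p was 0.00095 for Col2a1, 0.0016 for Cnmd, 0.0028 for Ctsk, 0.010 for Acp5 and 0.047 for Col10a1. Whether the group differences widened or narrowed with week was tested as a linear trend. For Col2a1 the log2 difference of STZ vehicle from normal changed by -0.15 ± 0.18 (SE) per week, and for Col10a1 by 0.28 ± 0.26 (SE). The limma adjusted p was 0.999 for each of the 6 genes, and no gene passed for STZ vehicle against normal (0%, 275 with an unadjusted p under 0.05) or for FK1706 against STZ vehicle (0%, 229).

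Col2a1 was read by 2 probe sets, and they did not follow each other. The second read 7.56, 7.85 and 7.74 in normal ganglia. It read 7.52, 7.76 and 7.64 with STZ and vehicle, and 7.72, 7.58 and 8.04 with FK1706. The groups overlapped, and the FK1706 array of week 3 was highest. Its STZ vehicle arrays were lower than normal in each week, but by a mean log2 difference of -0.08 ± 0.029 (SD, n = 3 weeks), against -1.18 for the first. Over the 9 arrays the pair had a Pearson r of -0.20 (exact permutation p = 0.607, two-sided) and a Spearman rho of -0.15 (exact permutation p = 0.708). Without the 2 arrays farthest from the median of the first probe set, normal week 1 and STZ vehicle week 3, r was -0.16. This was the 1 pair available, since the other 5 genes had 1 probe set each. On the scale as deposited, which all probe sets share with the fall of signal over weeks, r was 0.475. The lower Col2a1 level, its place between both other groups with FK1706 and its fall over weeks, described above, therefore rest on 1 of its 2 probe sets. So do the likenesses of Col2a1 to other genes given below. Which transcripts each probe set reads was not tested.

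**Figure D3:**
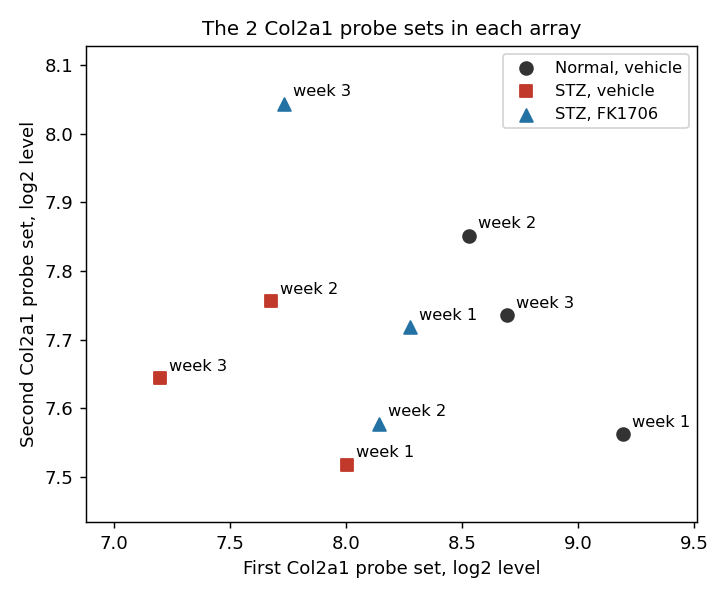
Log2 level of the first Col2a1 probe set (horizontal axis) against the second (vertical axis), 1 point per array, marked by group and week. The first spans 1.99 log2 units and separates normal from STZ vehicle arrays, while the second spans 0.53 and does not.

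Other cartilage genes were taken from a list of 34, of which 17 were on the array and 8 passed the filter. None of the 8 passed between STZ vehicle and normal, and 2 had an unadjusted p under 0.05, as had 604 of the 6989 genes tested. In each week 3 of the 8 were lower and 1 was higher, and their median log2 difference was -0.08, against 0.00056 over all genes. Prelp, a proteoglycan-family matrix protein, differed by -0.32 ± 0.14 (SE, limma adjusted p = 0.555) and Matn2, a matrilin, by -0.21 ± 0.089 (SE, limma adjusted p = 0.552). Scrg1 went the other way, with differences of 0.13, 0.21 and 0.29 in weeks 1 to 3 and a mean of 0.21 ± 0.13 (SE, limma adjusted p = 0.659). The summed signal of the 17 genes was 10562 to 11141 in normal, 10037 to 10436 in STZ vehicle and 10647 to 11009 in FK1706 ganglia. Most of this sum was Mgp, matrix Gla protein, with a mean signal of 6314 and a log2 difference of -0.05 ± 0.093 (SD, n = 3 weeks).

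Of the 9 cartilage genes under the filter, 7 were lower in STZ vehicle ganglia on average and 3 in each week (33.3%), against 49.9% and 12.4% of the 3422 genes under it. Sox6, a transcription factor of chondrocytes, was higher in each week, by a mean of 0.30 ± 0.17 (SD, n = 3 weeks). Col9a1, which encodes another chain of type IX collagen, had the most negative mean of the 9 and was singled out after its values were seen. Its log2 levels were 8.19, 7.85 and 7.76 in normal ganglia. With STZ and vehicle they were 6.92, 6.09 and 6.68, and with FK1706 they were 6.94, 6.67 and 5.88. Both STZ groups lay below normal without overlap, unlike its partner Col9a2, and the log2 difference of STZ vehicle from normal was -1.37 ± 0.34 (SD, n = 3 weeks). Acan, the aggrecan core protein gene, read 7.43, 7.45 and 7.35 in normal and 7.02, 7.05 and 7.22 in STZ vehicle ganglia, a difference of -0.31 ± 0.16 (SD, n = 3 weeks). With FK1706 it read 7.25, 6.98 and 7.33. Of the others under the filter, Col11a1 differed between STZ vehicle and normal by -0.48 ± 0.64 and Col11a2 by -0.40 ± 0.45. Chad differed by 0.0060 ± 0.10 (SD, n = 3 weeks each).

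Of 20 bone matrix and osteoblast genes, 13 were on the array, 3 passed the filter and none passed the test (median log2 difference -0.06). Bglap, which encodes osteocalcin, an osteoblast product, was under the filter and was named after its values were seen. It read 8.12, 7.73 and 8.09 in normal ganglia, 7.57, 4.93 and 4.43 in STZ vehicle ganglia and 6.28, 7.12 and 4.73 with FK1706. Each STZ array lay below each normal one, but the signal was as low as 3 and the mean difference of -2.34 had an SD of 1.61 (n = 3 weeks). Of the 10 genes under the filter, 7 were lower on average and 2 in each week. Ibsp, another osteoblast product, differed by -0.70 ± 1.46 (SD, n = 3 weeks), within its spread, and Tnfrsf11b, the decoy receptor osteoprotegerin, by 0.20 ± 0.70.

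Of 19 other osteoclast genes, 7 were on the array and 3 passed the filter. Car2, the carbonic anhydrase that supplies acid for resorption, differed between STZ vehicle and normal by -0.18 ± 0.092 (SE, limma adjusted p = 0.580). Src, a kinase needed for the resorbing membrane, differed by -0.09 and Clcn7, a lysosomal chloride transporter, by -0.06, and none of the 3 passed (median -0.09). Only 1 of the 3, Car2, was lower in each week, since Src differed by 0.088 in week 1 and Clcn7 by 0.31 in week 2. Of the 4 genes under the filter, 3 were lower on average and 0 in each week, and Mitf differed by 0.11. Mmp9, a matrix protease of osteoclasts, had signals of only 17.8 to 60.4 on the 9 arrays. The summed signal of the 7 genes was 1753 to 1827 in normal, 1539 to 1744 in STZ vehicle and 1765 to 1878 in FK1706 ganglia. Car2 made up the largest part of this sum, with a mean signal of 891, against 296 for Src, the next highest.

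**Figure D4:**
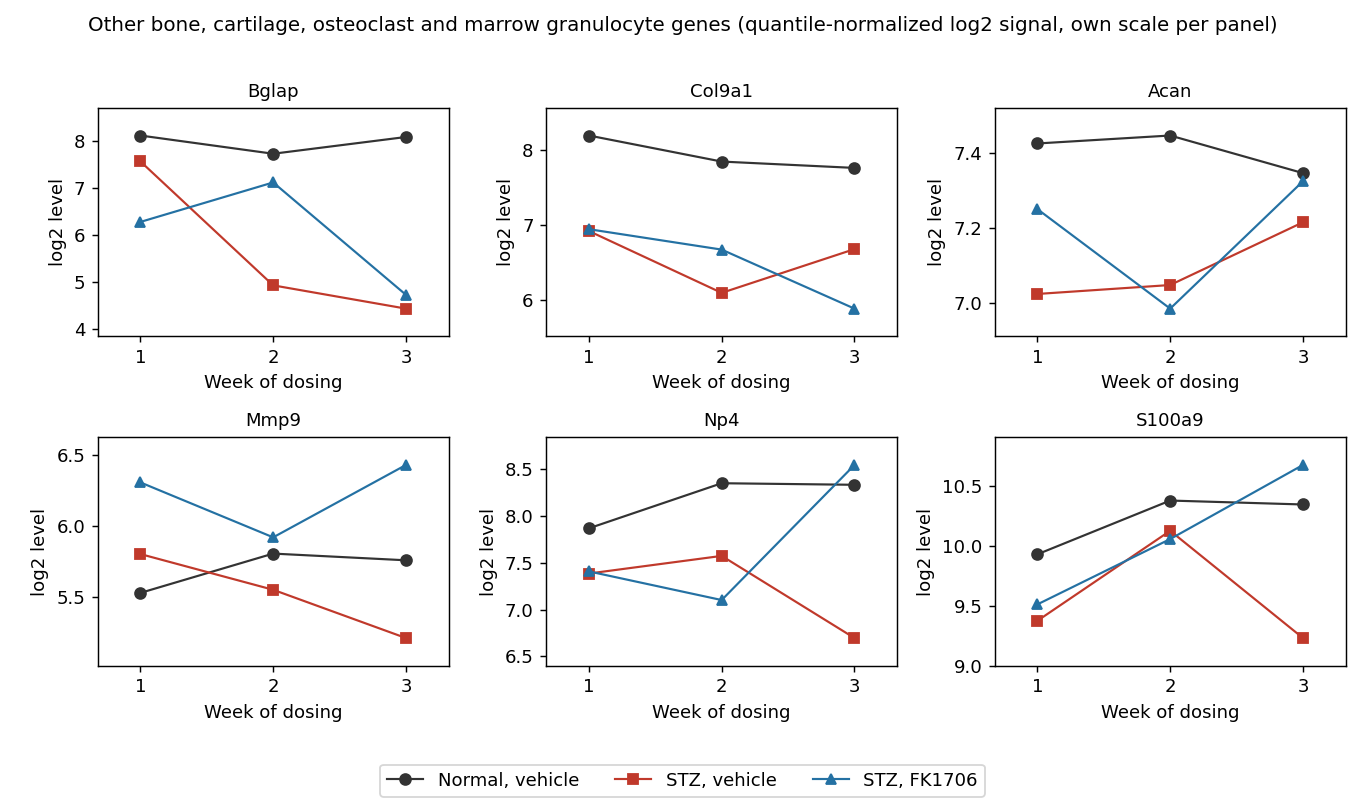
Log2 level by week of 6 genes outside the described set, with 1 point per pooled array and a separate vertical range in each panel. Col9a1 and Bglap in normal ganglia lie above both STZ groups in each week, whereas Mmp9 lies at low levels and the granulocyte genes Np4 and S100a9 are high in the FK1706 array of week 3.

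Acp5 is also a macrophage gene and Ctsk also a lysosomal and fibroblast gene, so those lists are given beside them. Of 11 macrophage genes tested, 6 were lower in STZ vehicle than in normal ganglia in each week and none passed (median log2 difference -0.15). C1qb, a complement subunit of macrophages, differed by -0.49 ± 0.17 (SE, limma adjusted p = 0.456). Summed over 16 macrophage genes, signal was 10011 to 10944 in normal, 9169 to 10130 in STZ vehicle and 9388 to 10485 in FK1706 ganglia. The 15 lysosomal genes had a median of -0.05 and none passed, with summed signals of 28682 to 30163, 28264 to 30032 and 29484 to 30054 in the same order. Their part in the Acp5 and Ctsk values was not tested.

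Of 15 fibroblast and fibrillar collagen genes tested, 10 were lower in STZ vehicle than in normal ganglia in each week. The median log2 difference was -0.32, and 3 genes passed, all lower. These were Col1a1 (-0.82 ± 0.095, SE, limma adjusted p = 0.011) and Col1a2 (-0.53 ± 0.082, SE, limma adjusted p = 0.048), both chains of type I collagen, and Col3a1 (-0.54 ± 0.067, SE, limma adjusted p = 0.011), the type III collagen gene. The list was chosen with earlier results of these data known, so these adjusted p-values describe its genes. The summed signal of the 16 genes measured was 36844 to 49093 in normal, 29753 to 37656 in STZ vehicle and 32799 to 39042 in FK1706 ganglia. The part of these cells in the Col2a1, Col10a1, Cnmd and Ctsk values was not tested.

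Granulocyte genes of bone marrow, 6 on the array and 5 tested, were lower in each week for 4, and none passed the limma test (median log2 difference -0.64, with -0.35, -0.59 and -1.12 in weeks 1 to 3). Np4, a neutrophil defensin, read 7.87, 8.35 and 8.33 in normal ganglia, 7.39, 7.57 and 6.70 with STZ and vehicle, and 7.41, 7.10 and 8.55 with FK1706. S100a9, a calcium-binding protein abundant in neutrophils, differed by -0.64 ± 0.22 (SE, limma adjusted p = 0.456). S100a8, also tested, was higher in weeks 1 and 2 (0.045 and 0.41) and lower in week 3 (-0.75). Defa5, among the 4 that were lower, differed by only -0.0075 in week 1. The summed signal of the 6 genes was 1867 to 2760 in normal, 1238 to 1949 in STZ vehicle and 1533 to 3242 in FK1706 ganglia, and its part in the bone and cartilage values was not tested. Skeletal muscle genes had medians of 0.31, -1.82 and 0.18 in weeks 1 to 3, with none of 10 passing and summed signals of 5642 to 9562, 4740 to 7312 and 4980 to 6755 in the same order of groups. Erythroid genes (3 tested, none passing) had a median of 0.04, with summed signals of 8809 to 12642, 8654 to 12664 and 9462 to 12502. The 10 Schwann and satellite glia genes had a median of -0.08, with 4 lower in each week, among them Cnp (-0.36 ± 0.091, SE) and Prx (-0.31 ± 0.079, SE), myelin genes each at a limma adjusted p of 0.317. Their summed signal was 45657 to 45904 in normal, 40314 to 45378 in STZ vehicle and 41656 to 43939 with FK1706, so both STZ groups lay below normal, and the part of glia in the described values was not tested. The 17 neuronal genes had a median of 0.04, and none of either list passed. No gene of these lists was listed at 0.

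Among 10 genes of growth hormone, insulin-like growth factor (IGF) and vitamin D signalling, pathways that act on the growth plate, 1 passed, with a list median of 0.03. It was Igf1, the growth factor itself, which was lower in STZ vehicle ganglia by a log2 difference of -0.79 ± 0.10 (SE, limma adjusted p = 0.011), in 3 of 3 weeks. Igfbp5, a binding protein of IGF, differed by -0.38 ± 0.11 (SE, limma adjusted p = 0.364). This list, too, was chosen with earlier results of these data known.

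**Figure D5:**
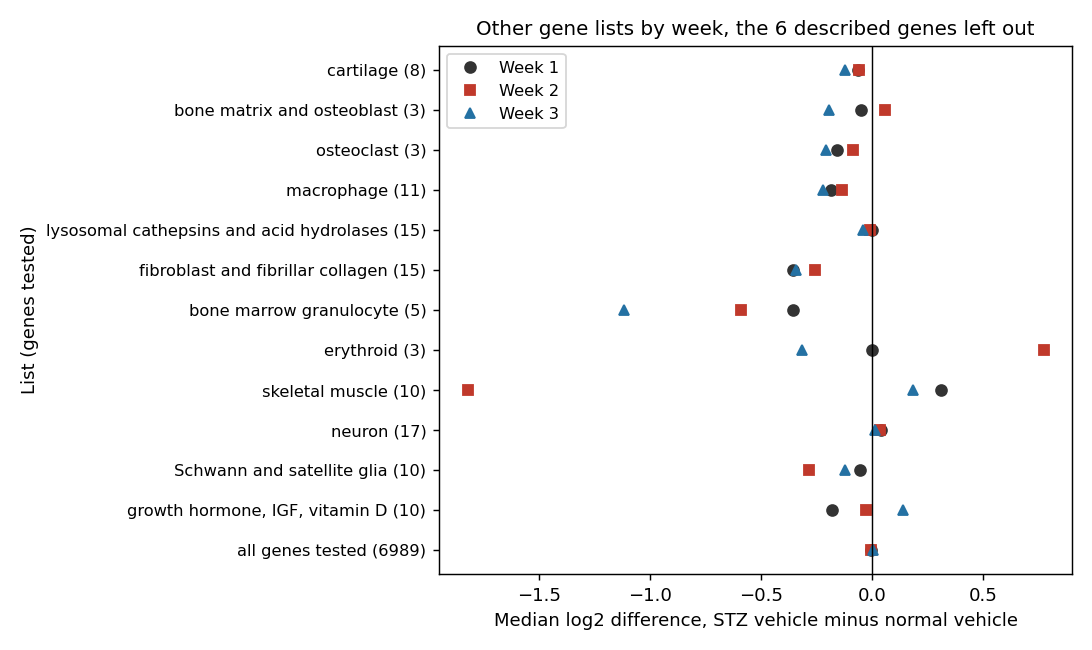
Median log2 difference of STZ vehicle from normal (horizontal axis) for the tested genes of 12 lists and of all 6989 genes, with 1 symbol per week and the number of genes in parentheses; the 6 described genes are left out. The cartilage, osteoclast, macrophage, lysosomal, fibroblast, granulocyte and glia lists lie below 0 in each week, from -0.00089 (lysosomal, week 1) to -1.12 (granulocyte, week 3), while the muscle list is low in week 2 alone.

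The genes whose levels most resembled those described were ranked by Pearson r over the 9 arrays, with the r after removal of group means beside it. All these values share the same 9 arrays, and they are descriptions. For Col2a1, read by its first probe set alone, they began with Egr1 (r = 0.97, 0.91 within groups), an immediate early transcription factor. Then came Igf1 (0.95, 0.89), Col12a1 (0.95, 0.83), Rgs5 (0.94, 0.93) and Ost4 (0.93, 0.74). For Acp5 they were Grcc10 (0.94, 0.82), Ost4 (0.94, 0.88), Col12a1 (0.94, 0.93), Tmem265 (0.93, 0.80) and Xpc (0.93, 0.82). Col12a1, a collagen that decorates type I fibrils, and Ost4, a subunit of the enzyme that attaches glycans, stood on both lists. For Col10a1 they were Sh3bgr (0.95, 0.87), Scyl2 (0.92, 0.86), Cox17 (0.89, 0.90), Msrb2 (0.89, 0.84) and Chchd6 (0.89, 0.68). For Ctsk they were Cox14 (0.95, 0.92), Terf2ip (0.95, 0.94), Add3 (0.94, 0.90), Dusp14 (0.94, 0.94) and Resf1 (0.93, 0.95).

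Among the described genes, with Col2a1 read by its first probe set, Col2a1 and Acp5 were the most alike pair, with r = 0.94 and 0.79 within groups. Acp5 and Ctsk had r = 0.83 and 0.70 within groups. Col2a1 and Col10a1 had r = 0.75, but 0.10 within groups, so their likeness lay in the group means. Col10a1 and Cnmd, both near STZ vehicle levels with FK1706, had r = 0.60 and -0.35 within groups. Col9a2 had r = 0.32 with Col2a1, 0.21 with Acp5, 0.21 with Col10a1 and 0.54 with Ctsk, and within groups these were 0.0098, -0.082, -0.62 and 0.64.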

How the data were processed

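The authors deposited linear intensities, 1 value for each probe set, made with MAS5, per the submitters' processing notes. Of 15923 probe sets, 57 are controls, and 12783 carry 1 gene symbol, 312 several and 2771 none in the platform annotation. An offset of 18.7 (10th percentile) was added, and log2 values were quantile normalized over 9 arrays. Each gene took its probe set of highest mean, and genes at or above the 40th percentile were tested with limma 3.58.1 (R 4.3.3; group and week as factors, trended prior, 4 residual degrees of freedom), which was tested on simulated data. Week of dosing, given in the sample titles, paired the arrays. Same-week arrays correlated at 0.0095 to 0.33 after group means were removed, and arrays of different weeks and groups at -0.31 to 0.12. No label says whether pools are separate experiments. The limma p-values for groups and weeks measure the spread of arrays left after both factors. That spread mixes pools, arrays and any change of group differences with week. The genes and lists were chosen with earlier results of these data known. From each list up to 4 tested genes with the largest moderated t, and any that passed, could be named, and the 5 most alike genes for likeness. The list genes under the filter, Mgp and S100a8 were named outside this rule. Scaling, offset, filter, probe set choice, prior, week block and omitted arrays were varied. Motifs were searched with Python 3.11.15. The number of pools limits the precision.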

Additional observations from a re-analysis of the deposited data

How the results depend on the processing

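The STZ vehicle minus normal difference stayed below 0 under every scaling, offset and omission of arrays tried for Col2a1 (-1.35 to -0.98), Col10a1 (-1.16 to -0.73), Cnmd (-0.64 to -0.40), Acp5 (-0.81 to -0.55) and Ctsk (-0.70 to -0.40), and for Col9a2 in all but 1, the omission of STZ vehicle week 3. Filter, prior and block cannot move these means, and the second Col2a1 probe set, read alone, gave -0.08. FK1706 minus STZ vehicle stayed above 0 in the same alternatives for the first Col2a1 probe set (0.32 to 0.50), Acp5 (0.27 to 0.46) and Ctsk (0.087 to 0.54). It fell below 0 in 4 each for Col10a1 and Cnmd. The counts of calls by limma moved more. Between STZ vehicle and normal, the 7 calls became 16 on the deposited scale and 0 without the filter (787 at an unadjusted p under 0.05). They became 0 with an untrended prior (569) and 1 without week as a block. Leaving out 1 array or week gave 0 to 6 calls: 0 without normal week 1, normal week 3, STZ vehicle week 1, STZ vehicle week 3 or all of week 1, 1 without week 3, 3 without STZ vehicle week 2 and 4 without week 2. Between FK1706 and normal, 1 call became 106 on the deposited scale, 0 without the filter (776), 2 with all probe sets, 0 with an untrended prior (539) and 0 to 2 with arrays left out. The week test gave 4489 calls on the deposited scale, 1 with trimmed-mean scaling, 1 without the filter, 0 with an untrended prior (755) and 0 to 19 with arrays left out, 19 being without week 2. FK1706 against STZ vehicle and both trends gave 0 calls in every alternative run. The block changed no other call. The Col2a1 probe set r was 0.475 on the deposited scale and -0.37 to 0.047 with arrays left out. The deposited scale moved the median of all genes by -0.10, -0.07 and -0.17 in the 3 group comparisons. Alternatives for the trends and the probe set pair were chosen after seeing the data, and beyond those steps the causes were not tested.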
